A study of Mus musculus with 6 samples.

Results

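The 10 genes described here were 9 CC chemokine genes of mouse chromosome 11 (Ccl2, Ccl3, Ccl4, Ccl6, Ccl7, Ccl8, Ccl9, Ccl11 and Ccl12) and the receptor gene Ccr1 on chromosome 9. They were chosen by symbol from the 55487 genes of the count table, and all 10 had enough counts to be tested. The libraries came from whole dorsal skin of mice taken on day 2, 3 given DPCP and 3 labelled control. DPCP (diphenylcyclopropenone) is a contact sensitizer that provokes an allergic reaction in skin. The labels give no strain, sex or age and no account of what the control skin received. Whether the replicates were different animals is not stated either, so p-values measure only the spread between these samples, which may be technical. The study is about macrophages and hair growth that follows contact allergy, and its design sets gene expression under DPCP against control.

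CC chemokines are small secreted proteins with a pair of adjacent cysteines near the amino end. They bind glycosaminoglycans on vessel walls and matrix and draw leukocytes in through G protein-coupled receptors. In mouse, Ccl2, Ccl7 and Ccl12 act on Ccr2 of monocytes, Ccl3, Ccl6 and Ccl9 on Ccr1 of myeloid cells, and the eotaxin Ccl11 on Ccr3 of eosinophils, while mouse Ccl8 acts on Ccr8.

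Total counts were 34708959, 38846787 and 31609336 in DPCP replicates 1 to 3, against 28346992, 28855768 and 33468828 in control replicates 1 to 3. Levels are CPM, the counts of a gene relative to the TMM-scaled library size, and genes at a Benjamini-Hochberg adjusted p under 0.05 by edgeR's quasi-likelihood test over 18259 genes were called. Keratinocyte markers summed to 29152 to 33682 CPM in DPCP and 23611 to 30078 CPM in control libraries, and skeletal muscle markers to 2813 to 5686 CPM in DPCP and 10804 to 13262 CPM in control libraries, so muscle RNA was present besides that of keratinocytes. No exon base of the 10 genes is shared with another gene. Of their transcripts' 50-base stretches, only some of Ccl9 (1.97%) recur in transcripts of other genes.

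Of the 10 genes, 9 rose in DPCP skin, against 22.8% of all genes tested, and none fell by edgeR's test, against 23.3%. Either call was made for 46.1% of all genes tested. The 10 genes were chosen with earlier results of these data known, so such shares describe them and test nothing. The remaining gene, Ccl11, was not called (edgeR adjusted p = 0.0556). It was the 1 gene lower by edgeR's unadjusted p and by DESeq2. The rises ran from 2.49-fold for Ccl9 to 117-fold for Ccl4, and 7 of the 10 genes rose at least 4-fold, which 2.84% of all genes tested did. Without DPCP replicate 2 this count was 4, with Ccl8, Ccl12 and Ccr1 under that fold. In these 9 genes each DPCP library was above each control library, a pattern seen in 28.6% of all genes tested. The median log2 fold change was 2.27 over the 10 genes and −0.01 over all genes tested. In bulk skin RNA, a change in the number of cells of a type and a change in RNA per cell cannot be told apart.

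**Figure D1:**
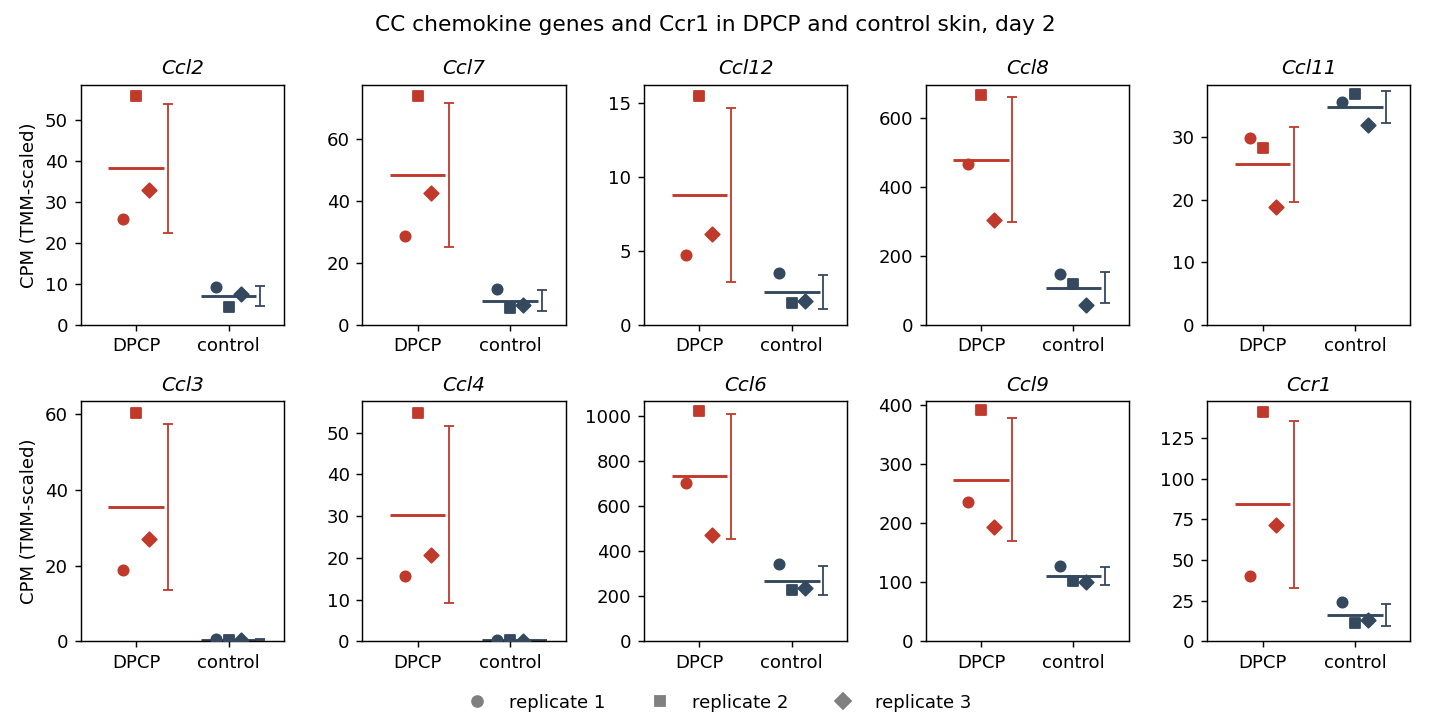
CPM of each gene in the 3 DPCP and 3 control libraries, on a separate linear axis from 0 for each gene. Points are libraries by replicate number, horizontal lines group means and bars the SD (n = 3). DPCP replicate 2 is the highest library for every gene except Ccl11, whose 3 DPCP libraries lie at 18.8 to 29.9 CPM, below its control libraries.

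The ligands of Ccr2 rose together. Ccl2 (ENSMUSG00000035385, monocyte chemoattractant protein 1; GRCm38 chromosome 11, 82035571 to 82037453) had 25.9, 56.1 and 32.99 CPM in DPCP replicates 1 to 3, against 9.16, 4.37 and 7.55 CPM in control replicates 1 to 3. The lowest DPCP library was 2.82 times the highest control library. DPCP skin thus had a 5.46-fold higher level (log2 2.45 ± 0.34 SE; edgeR adjusted p = 0.000627).

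Ccl7, monocyte chemoattractant protein 3, lies 8.26 kb downstream of Ccl2 on the same strand. It had 28.7, 74.1 and 42.7 CPM in the DPCP libraries, against 11.7, 5.30 and 6.33 CPM in the control libraries. It was 6.26-fold higher in DPCP skin (log2 2.65 ± 0.39 SE; edgeR adjusted p = 0.000924), and all DPCP libraries were above all control libraries. Per kilobase of exon, Ccl7 was above Ccl2 in all 6 libraries, with a ratio of Ccl2 to Ccl7 of 0.533 to 0.635 in DPCP and 0.552 to 0.840 in control libraries.

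Ccl12, a mouse chemokine of the same subgroup, was the least abundant of the 3. Its levels were 4.71, 15.5 and 6.15 CPM in DPCP libraries, against 3.51, 1.4996 and 1.61 CPM in control libraries. The groups did not overlap, but DPCP replicate 1 was close to control replicate 1. The difference was 2.00 ± 0.50 on the log2 scale (SE; edgeR adjusted p = 0.0111), and 1.30 without DPCP replicate 2 (adjusted p = 0.0293).

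Ccl8, which ends this first block of the cluster, had the highest mean level per kilobase of the 9 ligand genes in both groups, although Ccl6 was above it in control replicate 3 (132 against 113 CPM per kilobase). It had 468, 666 and 304 CPM in the DPCP libraries, against 146, 118 and 57.6 CPM in the control libraries. The groups did not overlap, and control replicate 3 was the lowest library. DPCP skin had 4.47-fold more (log2 2.16 ± 0.37 SE; edgeR adjusted p = 0.00183).

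Promoter sequences were matched in RefSeq's table (GRCm38.p6) for 6 of the 10 genes (Ccl3, Ccl6, Ccl8, Ccl9, Ccl12 and Ccr1). The 250 bases before the start of Ccl12 (chr11:82101595-82101844, plus strand) and Ccl8 (chr11:82114935-82115184, plus strand) are shown because these neighbouring genes rose by log2 fold changes of 2.00 and 2.16. Capitals mark matches to any motif searched, on both strands: TATAAA, the AP-1 motif TGANTCA, the C/EBP motif TTGCNNAA, the STAT motifs TTCNNNGAA (STAT3) and STAT6, and the NF-kB motif.
Ccl12: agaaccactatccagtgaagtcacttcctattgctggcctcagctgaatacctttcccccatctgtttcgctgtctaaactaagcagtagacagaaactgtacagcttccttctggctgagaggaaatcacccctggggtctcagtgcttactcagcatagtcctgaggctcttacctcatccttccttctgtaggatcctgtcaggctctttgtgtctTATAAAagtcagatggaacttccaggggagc
Ccl8: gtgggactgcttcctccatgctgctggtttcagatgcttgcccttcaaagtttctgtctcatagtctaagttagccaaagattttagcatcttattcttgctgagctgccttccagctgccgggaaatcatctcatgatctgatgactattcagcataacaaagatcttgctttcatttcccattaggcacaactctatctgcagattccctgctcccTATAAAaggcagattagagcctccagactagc
The only capitals are the TATAAA at −31 to −26 in Ccl12 and −32 to −27 in Ccl8, counted from −1 as the base before the start. TATAAA was present in 3 of the 6 promoters and in 12.4% of the 32851 promoters of the table. The best-scoring local alignment of this pair, with gaps allowed, held 41 identical bases in 58 aligned columns. Its score of 26 lay between those of Ccl6 with Ccl9 (29) and Ccl6 with Ccr1 (23). A match is a description of the letters and does not show that a factor binds there.

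Ccl11, eotaxin, lies between Ccl7 and Ccl12, at 10.3 kb from Ccl7 and 38.9 kb from Ccl12, and was not called. It had 29.9, 28.3 and 18.8 CPM in DPCP libraries, against 35.7, 36.9 and 32.02 CPM in control libraries. Every DPCP library was below every control library, a pattern seen in 29.4% of all genes tested. Its log2 difference was −0.44 ± 0.16 (SE; edgeR adjusted p = 0.0556). It ranged from −0.56 to −0.26 over 13 other settings, 6 of which called it lower. The log2 ratio of Ccl2 to Ccl11 CPM in the same library, not scaled to exon length, averaged 0.53 ± 0.64 in DPCP and −2.38 ± 0.61 in control skin (SD, n = 3 each; two-sided exact permutation p = 0.1, the smallest p that 3 against 3 allows, and 0.125 adjusted over 5 ratios).

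The largest differences were those of Ccl3 and Ccl4, macrophage inflammatory proteins 1 alpha and 1 beta, which lie 13.2 kb apart on opposite strands at the far end of the cluster. Ccl3 (ENSMUSG00000000982, chromosome 11, 83647844 to 83649355) had 655, 2205 and 836 counts in the DPCP libraries, against 15, 13 and 13 counts in the control libraries. In CPM these were 18.9, 60.3 and 26.9 in DPCP, against 0.511, 0.433 and 0.388 in control skin. It was 80.1-fold higher in DPCP skin (log2 6.32 ± 0.53 SE; edgeR adjusted p = 5.36e-05).

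Ccl4 had 544, 2000 and 641 counts in the DPCP libraries, against 10, 10 and 4 counts in the control libraries. Its CPM values were 15.7, 54.7 and 20.6 in DPCP, against 0.341, 0.333 and 0.119 in control skin. The lowest DPCP library was 46.1 times the highest control library for Ccl4 and 37.01 times for Ccl3. Ccl4 was 117-fold higher in DPCP skin (log2 6.87 ± 0.64 SE; edgeR adjusted p = 9.60e-05). Without DPCP replicate 2 the log2 fold changes were 5.69 for Ccl3 and 6.13 for Ccl4.

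Both genes ranked high among the 18259 tested, Ccl4 at 46 and Ccl3 at 60 by log2 fold change. Per kilobase, the ratio of Ccl3 to Ccl4 was 0.950 to 1.12 in DPCP libraries and 1.12 to 2.80 in control libraries, where few counts stood behind it. On CPM not scaled to exon length, the log2 ratio of Ccl3 to Ccl2 in the same library was −0.21 ± 0.29 in DPCP and −3.93 ± 0.52 in control skin (SD, n = 3 each; two-sided exact permutation p = 0.1, adjusted 0.125). For Ccl3 over Ccl4 this ratio of unscaled CPM was 0.26 ± 0.12 in DPCP and 0.89 ± 0.71 in control skin (two-sided exact permutation p = 0.2, adjusted 0.2). The difference of −0.62 was smaller than the control SD. Control replicates 1 to 3 had log2 ratios of 0.58, 0.38 and 1.70, the last on 13 and 4 counts.

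The promoter of Ccl3 (chr11:83649379-83649628, minus strand), the most strongly changed gene with a sequence in the table, held no match to the motifs searched, so it has no capitals.
Ccl3: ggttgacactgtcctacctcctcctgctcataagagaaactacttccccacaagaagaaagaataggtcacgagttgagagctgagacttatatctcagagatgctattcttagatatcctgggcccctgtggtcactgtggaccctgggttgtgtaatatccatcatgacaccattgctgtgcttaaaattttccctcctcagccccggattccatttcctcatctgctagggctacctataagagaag

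**Figure D2:**
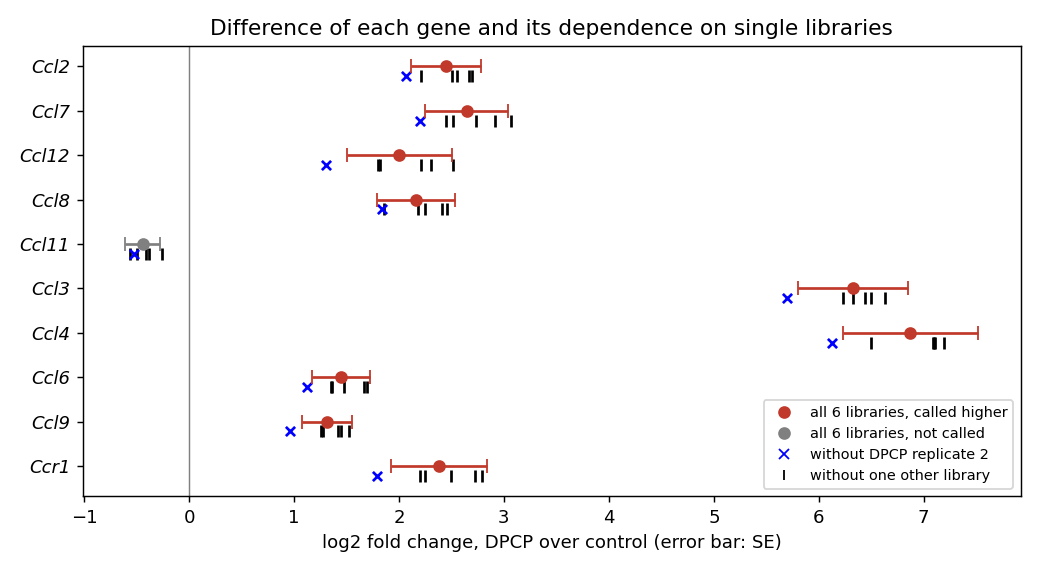
Log2 fold change of each gene, DPCP over control, with its SE over all 6 libraries (circles) and the value with each library left out (marks below). Ccl3 and Ccl4 stand at 6.32 and 6.87, the other called genes between 1.32 and 2.65, and Ccl11 at −0.44. The cross for leaving out DPCP replicate 2 is the lowest mark of each called gene.

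Ccl6 and Ccl9, mouse chemokines of myeloid cells, were abundant in control skin already and rose less. Ccl6 had 704, 1023 and 469.7 CPM in DPCP libraries, against 342, 227 and 237 CPM in control libraries. DPCP skin had 2.73-fold more (log2 1.45 ± 0.27 SE; edgeR adjusted p = 0.00303). Ccl9 had 236, 390.5 and 193 CPM in DPCP libraries, against 127, 101 and 100.4 CPM in control libraries. DPCP skin had 2.49-fold more (log2 1.32 ± 0.24 SE; edgeR adjusted p = 0.00256). For both genes DPCP replicate 3 was the lowest DPCP library, and control replicate 1 the highest control library.

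The 2 genes kept a near-constant proportion. Per kilobase, Ccl6 was 4.14 to 5.06 times Ccl9 in DPCP libraries and 3.79 to 4.57 times in control libraries. On CPM not scaled to exon length, the log2 ratio of Ccl8 to Ccl6 was −0.61 ± 0.02 in DPCP and −1.40 ± 0.57 in control skin (SD, n = 3 each; two-sided exact permutation p = 0.1, adjusted 0.125). The promoter of Ccl9 (chr11:83578637-83578886, minus strand) is shown because it was the only one of the 6 with NF-kB or AP-1 matches.
Ccl9: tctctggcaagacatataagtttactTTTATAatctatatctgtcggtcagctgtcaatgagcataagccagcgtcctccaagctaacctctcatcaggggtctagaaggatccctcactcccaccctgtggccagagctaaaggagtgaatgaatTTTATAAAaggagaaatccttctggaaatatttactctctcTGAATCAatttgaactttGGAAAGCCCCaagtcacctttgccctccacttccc
From left to right, its capitals are TATAAA on the minus strand, overlapping TATAAA matches on the minus and plus strands, AP-1 at −53 to −47 and NF-kB on the minus strand at −35 to −26. The AP-1 motif occurred in 6.75% and the NF-kB motif in 3.90% of all promoters in the table. The C/EBP motif (9.56% of all promoters), the STAT3 motif (7.02%) and the STAT6 motif (5.85%) had no match in the 6.

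Ccr1, the receptor for Ccl3, Ccl6, Ccl7 and Ccl9 on monocytes, neutrophils and other leukocytes, rose with its ligands. It had 40.2, 141 and 71.5 CPM in DPCP libraries, against 24.1, 11.5 and 12.98 CPM in control libraries. DPCP replicate 1 was the nearest to control, at 1.67 times the highest control library. It was 5.21-fold higher in DPCP skin (log2 2.38 ± 0.45 SE; edgeR adjusted p = 0.00312), with a log2 value of 1.79 without DPCP replicate 2.

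Receptors for these ligands differed by gene. Ccr2, the receptor for Ccl2, was called higher (log2 0.74 ± 0.27 SE; edgeR adjusted p = 0.0486), a call held in 6 of 13 other settings and lost without control replicate 2 (0.115), control replicate 3 (0.105), DPCP replicate 1 (0.0728) or DPCP replicate 2 (0.163). Ackr2, a decoy receptor that removes inflammatory CC chemokines, fell to 5.28 ± 0.303 CPM in DPCP, against 14.7 ± 2.68 CPM in control skin (log2 fold change −1.48 ± 0.16, SE; edgeR adjusted p = 0.000212). On CPM not scaled to exon length, the log2 ratio of Ccr1 to Ccr2 was −1.16 ± 0.74 in DPCP and −2.65 ± 0.41 in control skin (SD, n = 3 each; two-sided exact permutation p = 0.1, adjusted 0.125). Ccr3, the receptor for Ccl11, had 3.28 ± 0.964 CPM in DPCP and 4.03 ± 3.28 CPM in control skin and was not called (−0.29 ± 0.51, edgeR adjusted p = 0.671).

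Other CC ligands were set beside these for context. Of the 3 tested, 0 were called by edgeR, 0 had an unadjusted p under 0.05 and DESeq2 called 0. Of all genes tested, edgeR called 46.1%. Ccl5, a T cell and monocyte attractant in the same cluster, had 1.17 ± 0.286 CPM in DPCP and 2.03 ± 1.38 CPM in control skin, and leaving out control replicate 3 made it a lower call (−1.27 on the log2 scale, edgeR adjusted p = 0.0104). Ccl24, a further eotaxin, had 19.1, 5.50 and 2.996 CPM in DPCP libraries, against 16.6, 11.5 and 18.1 CPM in control libraries, and was called lower without DPCP replicate 1 (−1.85, adjusted p = 0.00187).

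Genes lying between these chemokine genes were mixed. The 9 ligand genes form 2 blocks, Ccl2 to Ccl8 over 81.2 kb and Ccl9 to Ccl4 over 91.8 kb, with 1456 kb between them. Of the 32 other genes tested between Ccl2 and Ccl4, 9 rose, 5 fell and 18 were not called, with a median log2 fold change of −0.02. Over all genes tested, 22.8% rose and 23.3% fell. Several Slfn genes were among the 9, with Slfn4 highest (3.20 ± 0.41, SE), while Slfn5 and Slfn8 were not called. Ccl1, which neighbours Ccl8, had a log2 fold change of 0.01 ± 0.58 on few counts.

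**Figure D3:**
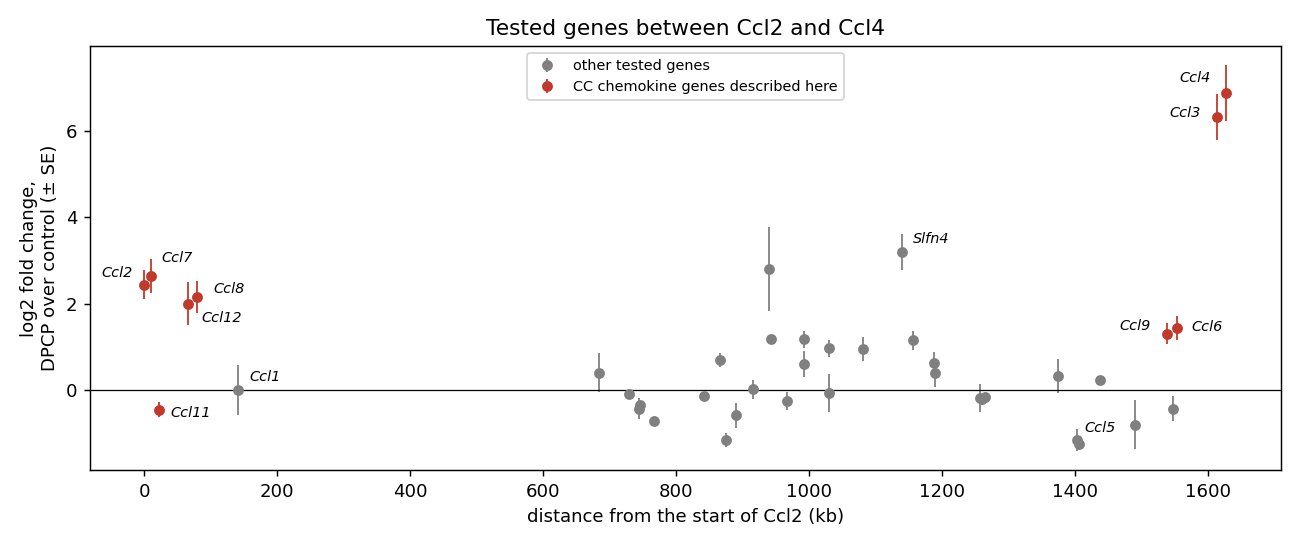
Log2 fold change (DPCP over control, ± SE) of each tested gene between Ccl2 and Ccl4, by the distance of its start from that of Ccl2 in kb. Of the 9 chemokine genes in red, 8 lie above 1 and Ccl11 lies below 0. The 32 other genes have a median of −0.02 and reach 3.20 at Slfn4.

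The 9 ligand genes together took 1529.7, 2361 and 1097 CPM per kilobase of exon in the DPCP libraries, against 582, 439 and 325 in the control libraries. Ccl8, Ccl6 and Ccl9 made up most of this sum in both groups, 86.4 ± 3.68% in DPCP and 87.8 ± 2.16% in control skin (SD, n = 3 each). Ccl8 alone had 56.5 ± 3.04% in DPCP and 45.5 ± 9.53% in control skin. Ccl3 and Ccl4 together made 5.36 ± 1.94% of the sum in DPCP, against 0.219 ± 0.0216% in control skin. Ccl11 had 1.4998 ± 0.357% in DPCP and 7.51 ± 1.73% in control skin.

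**Figure D4:**
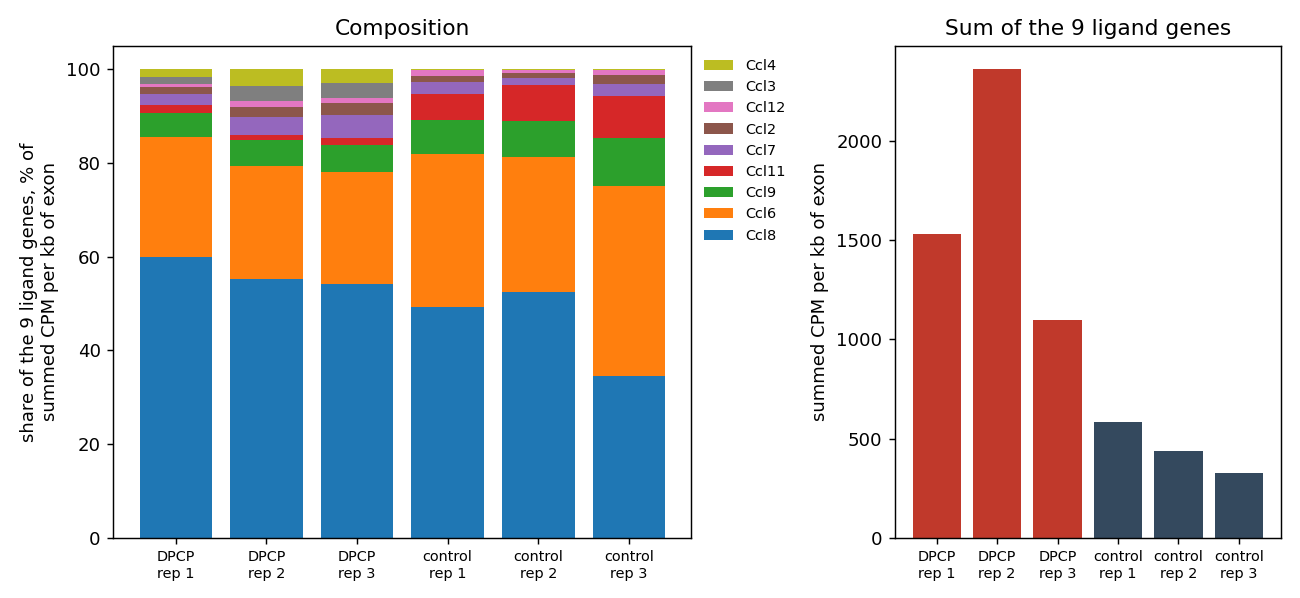
Left, share of each of the 9 ligand genes in their summed CPM per kilobase of exon in each library, in percent. Right, that sum itself. Ccl8 and Ccl6 fill most of each bar, the Ccl11 share is smaller in each DPCP library than in each control library, and the sum is highest in DPCP replicate 2 at 2361.

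Ordered by mean level per kilobase, the DPCP libraries ran Ccl8 (938 ± 355), Ccl6 (408 ± 155), Ccl9 (89.7 ± 34.1), Ccl7 (60.5 ± 29.1), Ccl3 (46.2 ± 28.7), Ccl4 (45.99 ± 32.2), Ccl2 (33.7 ± 13.9), Ccr1 (29.7 ± 18.2), Ccl11 (23.7 ± 5.51) and Ccl12 (16.4 ± 10.9; SD, n = 3). From Ccl9 downward the ranges of neighbours overlapped. In control libraries the order was Ccl8 (209.9 ± 88.7), Ccl6 (149.7 ± 35.7), Ccl9 (36.02 ± 4.97), Ccl11 (32.2 ± 2.36), Ccl7 (9.70 ± 4.28), Ccl2 (6.17 ± 2.14), Ccr1 (5.71 ± 2.44), Ccl12 (4.11 ± 2.10), Ccl3 (0.580 ± 0.0812) and Ccl4 (0.401 ± 0.190). There the ranges of neighbours parted between Ccl6 and Ccl9, Ccl11 and Ccl7, and Ccl12 and Ccl3. Ccl11 thus stood at rank 9 in DPCP and rank 4 in control skin.

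The called genes shared their highest library within each group. DPCP replicate 2 was the highest DPCP library for all 9 called genes, at 1.73 to 3.01 times the mean of the other DPCP libraries, whereas 45.6% of all genes called higher had their highest DPCP level there. Control replicate 1 was the highest control library for the same 9 genes, and no share over all genes is given for it. It hardly stood out for Ccl3 (15, 13 and 13 counts in control replicates 1 to 3) or Ccl4 (10, 10 and 4 counts). Monocyte and macrophage markers summed to 2128, 3104 and 1867 CPM in DPCP replicates 1 to 3, against 1436, 1569 and 928 CPM in control replicates 1 to 3. Neutrophil markers summed to 604, 1625 and 922 CPM in DPCP, against 179.6, 152 and 165 CPM in control libraries. Both sums were highest in DPCP replicate 2, and their part in the chemokine levels was not tested. Of the neutrophil sum, Il1r2, which was called lower, gave 133, 107 and 112 CPM in control replicates 1 to 3. S100a9 gave 215, 627 and 343 CPM of it in DPCP replicates 1 to 3. That sum thus rests largely on a few markers and is not a measure of neutrophil number.

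As a share of the summed monocyte and macrophage markers of the same library, the called genes differed among themselves. Mrc1 alone gave 635, 1273 and 714 CPM of that sum in DPCP and 379, 385 and 229 CPM in control replicates 1 to 3. It rose (log2 fold change 1.40 ± 0.29, SE), while the abundant markers Csf1r and C1qa were not called. The shares thus rest largely on a few markers and are not levels per macrophage. Ccl6 stood at 25.2 to 33.1% in DPCP and 14.5 to 25.5% in control libraries and Ccl9 at 10.3 to 12.6% in DPCP and 6.47 to 10.8% in control libraries, so the groups overlapped for both. Ccl12 overlapped too, at 0.221 to 0.4996% in DPCP and 0.0956 to 0.244% in control libraries. Ccl2 was at 1.22 to 1.81% in DPCP and 0.278 to 0.813% in control libraries, without overlap. Ccl3 was at 0.889 to 1.94% in DPCP and 0.0276 to 0.0418% in control libraries, and Ccl8 at 16.3 to 22.01% in DPCP and 6.20 to 10.2% in control libraries.

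**Figure D5:**
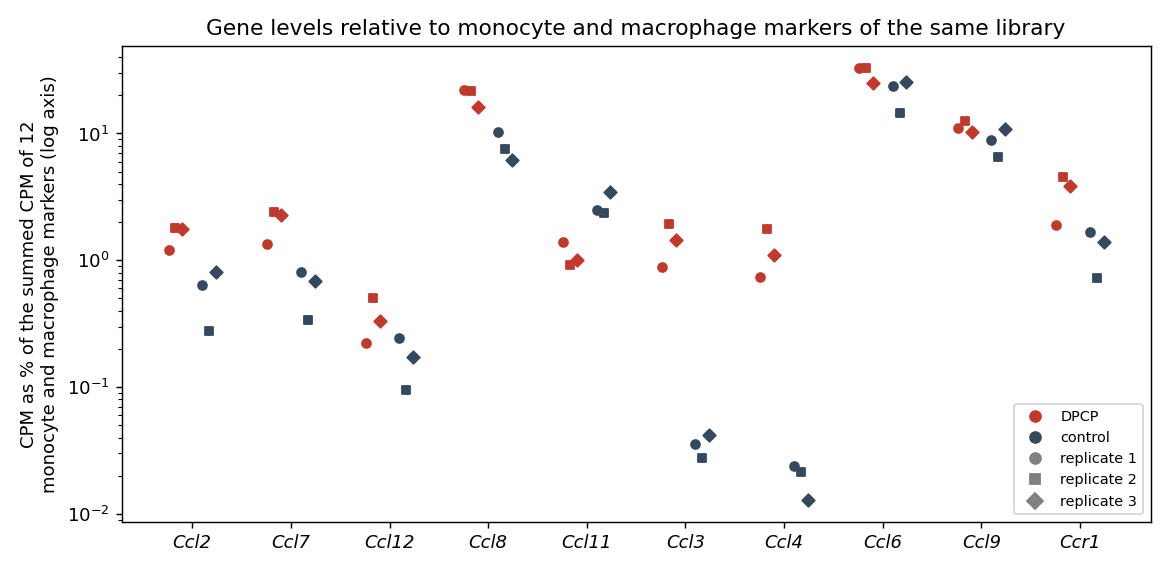
CPM of each gene as a percentage of the summed CPM of 12 monocyte and macrophage markers in the same library, on a log axis, for DPCP (red) and control (dark) libraries by replicate. The groups are far apart for Ccl3 and Ccl4 and overlap for Ccl6, Ccl9 and Ccl12, while for Ccl11 the DPCP libraries are lower.

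Of the 12 monocyte and macrophage markers, 7 rose and none fell (0 by edgeR at an unadjusted p under 0.05 and 0 by DESeq2), among them the scavenger receptor gene Msr1 (log2 fold change 1.94 ± 0.25, SE) and the integrin gene Itgam (1.42 ± 0.23). Of 9 neutrophil markers tested, 8 rose, among them Trem1 (7.94 ± 0.95, on 0, 4 and 5 control counts), S100a8 (7.10 ± 0.47) and S100a9 (6.19 ± 0.51). The decoy receptor gene Il1r2 fell (−0.68 ± 0.21), a call lost when DPCP replicate 1, DPCP replicate 3 or control replicate 1 was left out (edgeR adjusted p of 0.0741, 0.0797 and 0.0869). Ly6g was below the count filter. Beside these counts, 22.8% of all genes tested rose and 23.3% fell. Of the 8 eosinophil markers, 4 were tested, and edgeR, its unadjusted p and DESeq2 each gave 0 calls. Siglecf had 2.90 ± 0.694 CPM in DPCP and 1.94 ± 0.593 CPM in control skin, Ear2 25.3 ± 20.4 CPM in DPCP and 51.4 ± 16.4 CPM in control skin (SD, n = 3 each), and the eosinophil peroxidase gene Epx had 0 counts in all 6 libraries. Without control replicate 1 Siglecf was called higher (0.87, edgeR adjusted p = 0.0428), and without DPCP replicate 1 Ear2 was called lower (−1.82, 0.0159). Ear2 was also called lower with the replicate block (−1.32, edgeR adjusted p = 0.0194) and with no count filter (−1.01, 0.0217). The eosinophil markers summed to 12.5 to 54.9 CPM in DPCP and 46.6 to 83.4 CPM in control libraries.

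Calls among markers of other cell types stand beside 22.8% of all genes tested called higher and 23.3% called lower. The fibroblast markers, with 2 of 8 higher and 2 lower, were near these shares. Of 9 mast cell and basophil markers, 6 rose, among them Fcer1a (3.21 ± 0.38) and Cpa3 (0.81 ± 0.15), and Mrgprb2 fell (−1.51 ± 0.19). Of 8 endothelial markers, 5 rose, among them Sele (2.51 ± 0.19) and Pecam1 (1.25 ± 0.12), and Tek fell (−0.40 ± 0.11; lost without control replicate 2 or DPCP replicate 3). Of 8 fibroblast markers, Col3a1 (1.11 ± 0.23) and Pdgfra (0.89 ± 0.24) rose and Dpp4 (−1.12 ± 0.15) and Pi16 (−0.57 ± 0.12) fell, the call of Pdgfra being lost without control replicate 1, control replicate 3 or DPCP replicate 2. Of 8 keratinocyte markers, Krt14 rose (1.87 ± 0.12) and 4 fell, among them Krt15 (−1.77 ± 0.16) and Krt10 (−2.54 ± 0.23). Of 9 T cell and NK cell markers, Cd4 rose (0.94 ± 0.25) and 6 fell, among them Trdc (−1.91 ± 0.20) and Cd3g (−1.86 ± 0.20). All 7 skeletal muscle markers fell, among them Mb (−2.14 ± 0.08) and Mylpf (−1.36 ± 0.12). These values are log2 fold changes with SE, and their part in the chemokine differences was not tested.

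Genes of a list of cytokines and regulators upstream of CC chemokines, not all of them inducers, rose in part. Of 14 tested, 5 rose (Il1b, Il6, Stat3, Tnf and Nfkb1), 1 fell and 8 were not called. Of all genes tested, 22.8% rose and 23.3% fell. With 46.1% of all genes called in either direction, this list was called about as often as all genes. Il1b, an interleukin 1 cytokine of myeloid cells, had 99.99, 385 and 154 CPM in DPCP libraries, against 3.54, 1.77 and 1.64 CPM in control libraries, a log2 fold change of 6.53 ± 0.60 (SE). Il6 had 6.61, 22.98 and 9.89 CPM in DPCP libraries, against 0.136, 0.0333 and 0.209 CPM in control libraries. For both, DPCP replicate 2 was highest and DPCP replicate 1 lowest, as for 6 of the 9 called genes. The called genes Ccl6, Ccl8 and Ccl9 were instead lowest in DPCP replicate 3. Of all genes called higher, 45.6% had their highest DPCP level in replicate 2. The part of Il1b and Il6 in the chemokine levels was not tested. Tnf rose by 1.94 ± 0.29 and Stat3 by 0.85 ± 0.11 on the log2 scale, and Nfkbiz, an NF-kB cofactor gene, fell by 0.68 ± 0.13. Ifng had 0 to 13 counts per library and was not tested.

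Genes of signalling downstream of chemokine receptors in leukocytes rose in 6 of 12 cases, fell in 1 and were not called in 5. For this list and the next, the shares over all genes tested were 22.8% higher and 23.3% lower. The exchange factor gene Vav1 rose by 1.19 ± 0.16 and the phosphoinositide 3-kinase subunit gene Pik3r5 by 1.08 ± 0.15 on the log2 scale (SE). The G protein gene Gnai3 fell by 0.36 ± 0.10, a call lost without control replicate 1, control replicate 3 or DPCP replicate 3. Of 11 genes for proteases and anchors that act on secreted chemokines, 8 rose, 2 fell and 1 was not called. Mmp3, a protease that can trim chemokines, rose by 2.22 ± 0.24, and Tnfaip6, whose product binds chemokines, by 2.48 ± 0.29. Dpp4, a peptidase that clips the amino end of several chemokines, fell to 85.9 ± 18.5 CPM in DPCP, against 187 ± 5.68 CPM in control skin (SD, n = 3 each). Il1b, Stat3, Dpp4, Itgam, Csf1r, Ifng, Trdc, Krt10, Mb, Col3a1, Pdgfra and Pi16 share exon bases with other genes, so their levels are uncertain.

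Over the 6 libraries, the genes with a profile of log2 CPM most like that of Ccl2 were Tes, Tcp1 and Hsp90b1, with Pearson r of 0.9997, 0.9989 and 0.9979 among 11785 genes compared. For Ccl3, Rlim and Gpr35 were among the most alike, with r of 0.9992 and 0.9990. These genes parted the groups as the chemokines did, but their log2 fold changes of 0.43 to 2.52 were smaller than that of Ccl3, and that of Gpr35 (2.52 ± 0.19, SE) was closest in size to the 2.45 of Ccl2. The points share the 2 groups, so these r values mostly describe the difference between groups. Between Ccl3 and Ccl4 r was 0.999, between Ccl2 and Ccl7 0.990, and between Ccl2 and Ccl11 −0.69.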

How the data were processed

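Gene expression was measured by sequencing of polyadenylated RNA from 6 samples of mouse dorsal skin, with a strand-preserving kit and paired reads, per the labels' protocols. The authors deposited untransformed counts for each gene from featureCounts 1.6.2 on Ensembl's GRCm38 gene models, per the file headers. The command set no option for strand, pairs, several alignments or overlapping genes, so mates were counted singly on either strand and ambiguous reads were dropped. HISAT2 2.2.1, Trimmomatic 0.36, DESeq2 1.34.0 and StringTie 2.2.1 are listed in the submitters' processing notes.

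Symbols came from GENCODE M21 (55227 of 55487 identifiers matched), coordinates from the deposited table and promoters from RefSeq. Exon lengths, which the deposited table gives and which carry no other scale, served for levels per kilobase.

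Counts were tested with edgeR 4.0.16 in R 4.3.3 (TMM factors, filterByExpr, quasi-likelihood test), and the script was tested on simulated data. SE is the unshrunken log2 fold change over the square root of F. A count of 0 allowed up to 0.0772 to 0.106 CPM (3 counts), for counting error only. This bound is on library totals without TMM factors and takes counts as independent, which mates of a pair are not. All libraries of a group differed from each other beyond counting noise (lowest chi-square for each gene 18.2). Alternatives were other scalings, filters, DESeq2 1.42.0, the replicate number as a block and leaving out each library.

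The 10 genes and the context lists were chosen with earlier results of these data known. From each list, at least the 2 genes with the smallest p in the main direction and 1 called in the other were named; where none was called, values are given. Some genes that this rule names are not reported here. Likeness used log2(CPM + 0.5) and genes of at least 5 CPM.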

Additional observations from a re-analysis of the deposited data

How the results depend on the processing

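The 9 calls of higher genes among the 10 held under all 13 alternatives tried. Leaving out one library gave log2 fold changes of 2.06 to 2.69 for Ccl2, 2.199 to 3.07 for Ccl7, 1.30 to 2.51 for Ccl12, 1.84 to 2.46 for Ccl8, 5.69 to 6.63 for Ccl3, 6.13 to 7.19 for Ccl4, 1.12 to 1.69 for Ccl6, 0.96 to 1.52 for Ccl9 and 1.79 to 2.79 for Ccr1, each time lowest without DPCP replicate 2. The count of genes at least 4-fold higher was 4 to 7 without one library, 4 being without DPCP replicate 2. Ccl11 depended on the setting. It was the 1 gene called lower with upper-quartile factors (−0.47, edgeR adjusted p = 0.0459), library totals alone (−0.52, 0.0325), DESeq2 (−0.43, 0.0462), no count filter (−0.43, 0.0182), the replicate block (−0.47, 0.0145) and without DPCP replicate 1 (−0.56, 0.0323). Without one library its log2 fold change was −0.56 to −0.26 and the count of genes called lower 0 to 1, and the cause was not tested. Library totals alone moved the median of all genes to −0.09.

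Replicate numbers share no stated origin, so the main fit took no pairs. Same-numbered libraries deviated together weakly (r of 0.0455, 0.0265 and 0.112 for replicates 1 to 3). Only replicate 3 passed the r of 0.1 set for a pair. Libraries of different number had r from −0.143 to 0.0990. With the replicate block 9 of the 10 genes stayed higher. Over all genes, 3492 to 4361 were called higher and 3430 to 4858 lower, and over the context lists 45 to 58 and 22 to 27. Among named context genes not called, the direction of Ccl1 turned with upper-quartile factors (−0.022) and library totals alone (−0.071) and ran from −0.42 to 0.85 without one library, and that of Ccr3 ran from −0.64 to 0.63 without one library. Depth limits the control values of Ccl3 and Ccl4, at 4 to 15 counts per library.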
